A study of Mus musculus with 8 samples.

Results

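The sarcomeric myosin heavy chains of the petrous temporal bone (PTB) are the motor proteins of striated muscle fibers, and 7 of their genes were followed by symbol in every nucleus barcode of the PTB libraries: Myh1, Myh2, Myh3, Myh4, Myh6, Myh7 and Myh8. All 7 were found among the 32285 genes of the deposited matrices, and together they held 26411 unique molecular identifiers (UMIs, each standing for 1 captured RNA molecule) over 63177 barcodes. The data were single-nucleus RNA counts from frozen PTB and from the paraflocculus and flocculus (PF/F), the cerebellar lobules that the PTB houses. The groups were wild-type (WT) mice and mice heterozygous for a Tbx1 null allele (Tbx1+/-), a transcription factor gene of the pharyngeal apparatus and inner ear, all at postnatal day 5.5 on a C57/BL6 background. Each library pooled 5 mice, and each group of a tissue and a genotype had 2 libraries, so the pooled animals cannot be told apart. The study names 2 batches of animals, and the library numbers 1 and 2 were taken to mark them.

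The PTB libraries held 66835028 to 88677309 UMIs in 11906 to 21868 barcodes, with median depths of 3295 to 4199 UMIs, and any pair of them shared 45 to 82 barcode sequences. Scaled to 1000000 UMIs per library (CPM), Tbx1 itself stood at 39.3 and 46.3 in the WT libraries and at 27.6 and 40.1 in the Tbx1+/- libraries, lower in Tbx1+/- within each batch. The deposited labels sorted 31076 barcodes into 15 cartilage, bone and connective tissue types and named no muscle type. The other 32101 barcodes carried no label and are called unannotated here.

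Each sarcomere draws force from 1 or more myosin heavy chain isoforms, and the isoform sets how fast a fiber contracts. Myh3 encodes the embryonic isoform and Myh8 the perinatal (neonatal) isoform, both of which adult fibers largely give up. Myh2, Myh1 and Myh4 encode the adult fast isoforms known as IIa, IIx and IIb. Myh7 encodes the slow isoform, also the beta isoform of the heart, and Myh6 the alpha isoform of the heart. In the newborn mouse, fibers of head and limb muscles are in the middle of the exchange of developmental for adult isoforms.

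The 5 developmental and fast genes lie in 1 cluster on the plus strand of chromosome 11 (GRCm38, GENCODE vM21 gene spans with introns). Their order is Myh3 at chr11:67078300-67102291, Myh2 at chr11:67171027-67197517, Myh1 at chr11:67200052-67224575, Myh4 at chr11:67238029-67260446 and Myh8 at chr11:67277124-67308634. The cardiac pair lies on the minus strand of chromosome 14, with Myh6 at chr14:54941921-54966927 and Myh7 just upstream at chr14:54970684-54994626. The RefSeq promoter table (GRCm38.p6, 250 bases before to 50 after each annotated start) matched 7 of 7 members. A run of 14 bases was found in the windows of Myh1, Myh2, Myh4 and Myh8 by searching those windows for the longest stretch they all hold. The run occurs in 4 of 32851 windows (0.0122%), which are those same genes, and it was not in the windows of Myh3, Myh6 or Myh7. The stretches around it are shown because they set these members apart by sequence from Myh3, the other of the 7 members in the cluster. Capitals mark the shared run, the MEF2 motif (matched by name, a site class of muscle promoters) and TATAAA on the plus strand where present.
Myh1 (chr11:67199867-67199967, plus strand): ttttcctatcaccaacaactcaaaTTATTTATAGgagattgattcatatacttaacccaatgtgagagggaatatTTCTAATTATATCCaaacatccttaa
Myh2 (chr11:67170827-67170927, plus strand): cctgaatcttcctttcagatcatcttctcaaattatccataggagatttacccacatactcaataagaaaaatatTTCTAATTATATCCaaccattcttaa
Myh4 (chr11:67237579-67237679, plus strand): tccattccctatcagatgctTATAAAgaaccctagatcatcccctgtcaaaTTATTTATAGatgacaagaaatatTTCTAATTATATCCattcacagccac
Myh8 (chr11:67276995-67277095, plus strand): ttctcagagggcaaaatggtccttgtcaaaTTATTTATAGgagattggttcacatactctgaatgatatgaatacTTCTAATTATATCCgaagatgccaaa
The run TTCTAATTATATCC begins 160, 125, 158 and 54 bases before the RefSeq start of Myh1, Myh2, Myh4 and Myh8. Upstream of it the MEF2 motif begins 211, 182 and 99 bases before the start of Myh1, Myh4 and Myh8, and 3.19% of all windows hold that motif on either strand. TATAAA, searched on both strands, was in the windows of 6 of the 7 members and in 13.6% of all windows; the match in Myh8 lies on the reverse strand inside its MEF2 match. The E-box CANNTG was in 5 of 7 members and in 72.3% of all windows. These matches describe letters in a window and not sites of binding.

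Myh8 was the highest member in each PTB library, in UMIs and per kilobase of gene. It held 16099 of the 26411 member UMIs (61.0%), followed by Myh1 with 4715 (17.9%), Myh2 with 2298 and Myh3 with 1458, whereas Myh7 held 855, Myh6 791 and Myh4 195. Myh8, the perinatal isoform, stood at 93.2 CPM in WT 1, 11.6 in WT 2, 85.7 in Tbx1+/- 1 and 7.71 in Tbx1+/- 2. Myh1, the IIx isoform, stood at 29.8, 4.75, 19.9 and 3.49 CPM in the same order. In both genes the libraries of batch 1 were high and those of batch 2 low, and the genotypes overlapped. Myh2, the IIa isoform, was measured at 12.7, 2.90, 10.6 and 2.60 CPM. Myh3, the embryonic isoform, was measured at 7.81, 1.56, 7.80 and 0.973 CPM. Both followed the order of Myh8, with the pair of batch 1 libraries several times above the pair of batch 2 libraries. Myh4, the IIb isoform that dominates adult fast limb fibers, was scarce at 1.29, 0.312, 0.760 and 0.0299 CPM, the last of which was 2 UMIs and below the floor of 3 counts (0.0449 CPM). Myh7, the slow isoform, was measured at 6.18, 2.06, 1.23 and 1.11 CPM, so that both WT libraries lay above both Tbx1+/- libraries. Myh6 was measured at 2.45, 3.48, 1.95 and 2.86 CPM, lower in batch 1 than in batch 2 within each genotype.

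**Figure D1:**
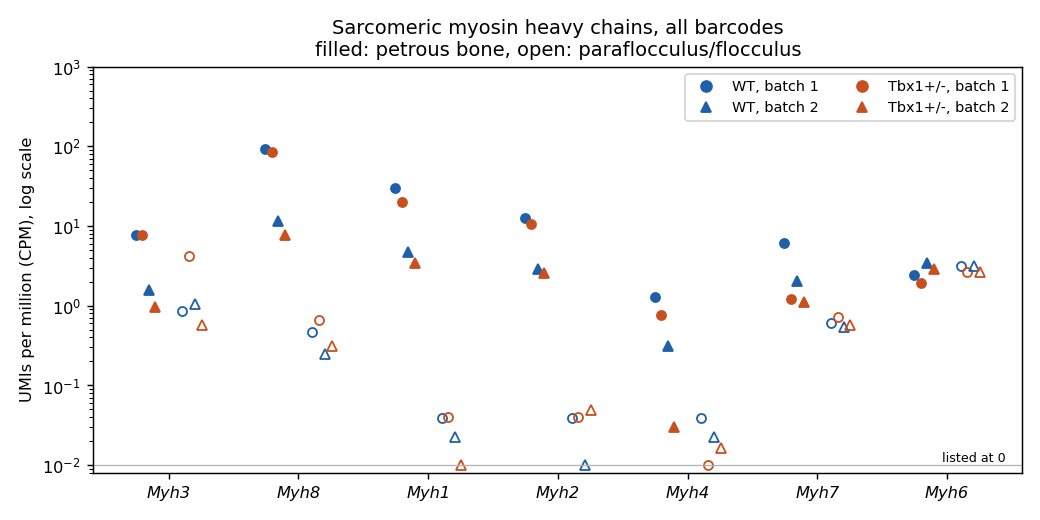
Level of each member in each library in CPM on a log scale, with filled symbols for PTB, open symbols for PF/F, colors for genotype and shapes for batch. The batch 1 libraries sit above the batch 2 libraries for Myh3, Myh8, Myh1, Myh2 and Myh4 in PTB, whereas Myh6 lies between 1.95 and 3.48 CPM in PTB and between 2.62 and 3.15 in PF/F.

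Per kilobase of gene span, which compares genes where intronic reads are counted, the mean levels over the 4 PTB libraries were ordered Myh8 at 1.57 ± 1.47 CPM per kb, Myh1 at 0.591 ± 0.516, Myh2 at 0.271 ± 0.196, Myh3 at 0.189 ± 0.158, Myh7 at 0.111 ± 0.100, Myh6 at 0.107 ± 0.0258 and Myh4 at 0.0266 ± 0.0245 (SD, n = 4 for each). Each neighbor in this order differed from the next by less than 1 SD of the higher one, except that Myh6 exceeded Myh4 by more than its SD. The SDs are between libraries, and for the members other than Myh7 this spread came largely from the batches. Myh7 stood at 6.18 CPM in WT 1 and at 1.11 to 2.06 CPM in the other libraries. Within each PTB library Myh8, Myh1, Myh2 and Myh3 kept their order, as with 0.368, 0.194, 0.109 and 0.0650 CPM per kb in WT 2. The 7 members summed to 153 CPM in WT 1, 26.7 in WT 2, 128 in Tbx1+/- 1 and 18.8 in Tbx1+/- 2, so batch 1 was 5.75-fold higher than batch 2 in WT and 6.82-fold higher in Tbx1+/-. Myh8 alone differed 8.03-fold and 11.1-fold, and Myh1 6.28-fold and 5.70-fold. Myh7 differed 2.99-fold in WT and 1.11-fold in Tbx1+/-, and Myh6 was lower in batch 1, at 0.704 and 0.683 of its batch 2 level. In sums over a whole library, fewer muscle nuclei and less RNA per nucleus cannot be told apart.

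PF/F, a brain tissue, served as the comparison for the whole tissue. The fast isoforms were close to 0 there: Myh1 lay between 0 and 0.0397 CPM, Myh2 between 0 and 0.0495 and Myh4 between 0 and 0.0391. Myh8 lay between 0.246 and 0.656 CPM and Myh7 between 0.537 and 0.715. In edgeR's quasi-likelihood test over 23420 genes with Benjamini-Hochberg adjustment, 5 of the 7 members were called higher in PTB (adjusted p under 0.05 and more than 1.5-fold), against a background of 57.7% of genes called in either direction and 29.3% called higher in PTB. The log2 differences of the called members were 9.09 ± 1.25 for Myh1, 7.75 ± 0.98 for Myh2, 6.87 ± 1.14 for Myh8, 4.89 ± 1.29 for Myh4 and 1.83 ± 0.38 for Myh7 (SE, 4 libraries against 4). Their adjusted p-values were 0.000436, 0.000284, 0.00117, 0.0111 and 0.00344. With 5, 7 and 4 UMIs in all PF/F libraries together, the fitted size for Myh1, Myh2 and Myh4 depends on the prior count and is no bound. Without the library Tbx1+/- 1 of PTB, Myh4 no longer passed the test (log2 difference 3.05, adjusted p = 0.126 by edgeR).

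Myh3 and Myh6 were not called between the tissues. Myh6 differed by -0.16 ± 0.17 on the log2 scale (adjusted p = 0.442 by edgeR), with 1.95 to 3.48 CPM in PTB and 2.62 to 3.15 CPM in PF/F, so its groups overlapped. Myh3 differed by 1.57 ± 0.87 (adjusted p = 0.142 by edgeR), and passed the test with the batch as a block (1.29, adjusted p = 0.0410). One PF/F library stood apart for Myh3: Tbx1+/- 1 held 4.23 CPM against 0.859, 1.05 and 0.577 in the others. Of its 213 Myh3 UMIs, 133 came from 1 barcode of 4508 UMIs that also held 12 Myh8 UMIs and 123 UMIs of the muscle markers described next. By the definitions given there, the PF/F libraries held 3 to 5 muscle-marker and 1 to 3 muscle-rich barcodes each, and all 6 PF/F barcodes with at least 3 Myh3 UMIs were muscle-marker barcodes, so this tissue was not free of muscle RNA.

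To see which barcodes carried the members, muscle-marker barcodes were chosen by 12 sarcomere and triad genes that are no members, among them Ttn and Neb, the giant scaffold proteins, Trdn and Ryr1 of the calcium release unit, and Ckm, the muscle creatine kinase. A barcode with at least 10 UMIs over these genes and at least 4 of them detected counted as muscle-marker. In PTB there were 481 such barcodes, 198 in WT 1, 67 in WT 2, 169 in Tbx1+/- 1 and 47 in Tbx1+/- 2. Many in batch 2 were deep barcodes with few muscle UMIs, with median depths of 24237 and 16876 UMIs against 4445 and 5232 in batch 1. A narrower group, called muscle-rich, was therefore added after the values were seen, in which the 12 genes made up at least 0.5% of the UMIs. It held 288 barcodes, 147 in WT 1, 14 in WT 2, 109 in Tbx1+/- 1 and 18 in Tbx1+/- 2, and 10 of them carried a deposited label. Skeletal muscle genes that the choice did not use were high in them: Atp2a1, the fast calcium pump, averaged 1432 ± 87.3 CPM and Myl1, a fast light chain, 4020 ± 931 CPM (SD, n = 4 libraries), against at most 13.9 and 66.4 CPM in the other barcodes of any library. Of the 7 heart markers, Nppb, Myl7 and Mybpc3 had 0 UMIs in muscle-rich barcodes, Nppa 1, Hcn4 2, Tnni3 5 and Ryr2 18. Ryr2, the calcium release channel of the heart and also of neurons, averaged 6.27 CPM there and at least 28.2 CPM in the other barcodes of each library.

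A small set of barcodes held a large part of the member UMIs. Muscle-rich barcodes held 0.939%, 0.125%, 0.738% and 0.125% of all UMIs in WT 1, WT 2, Tbx1+/- 1 and Tbx1+/- 2, but 45.5%, 38.9%, 47.9% and 58.4% of the member UMIs. Within them the 7 members summed to 7432, 8278, 8299 and 8729 CPM. Outside them the sums were 84.4, 16.3, 67.2 and 7.82 CPM, again ordered by batch. The number of muscle-rich barcodes per 1000 was 6.72, 1.18, 6.44 and 1.44. The gate asks for a minimum share of muscle RNA, so the levels inside it are partly set by that choice, and the wider muscle-marker group numbered 9.05, 5.63, 9.98 and 3.77 per 1000. All barcodes with 50 or more member UMIs were muscle-rich, 29 in WT 1, 6 in WT 2, 22 in Tbx1+/- 1 and 4 in Tbx1+/- 2, and these alone held 31.9% to 36.9% of the member UMIs of their library. At the other end, barcodes with 1 or 2 member UMIs numbered 5386, 929, 3902 and 447 and held 46.3%, 57.0%, 45.5% and 38.7%.

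**Figure D2:**
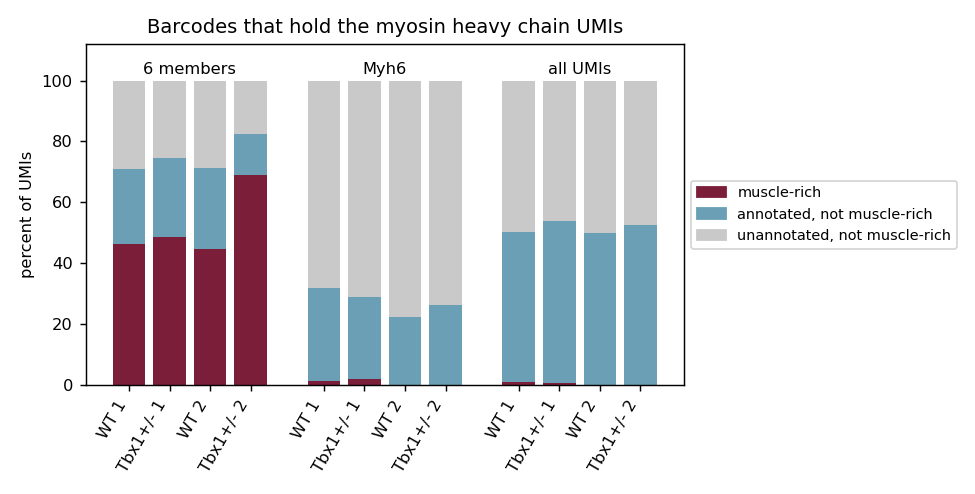
Share of UMIs, in percent, that falls in muscle-rich barcodes, in other annotated barcodes and in other unannotated barcodes, for the 6 members other than Myh6, for Myh6 and for all UMIs in each PTB library. The bars for the 6 members are filled to between 44.8% and 68.9% by muscle-rich barcodes, which hold under 1% of all UMIs.

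Myh8 was also detected in annotated barcodes outside the muscle-rich group. It had at least 1 UMI in 16.3%, 3.51%, 16.2% and 1.01% of these annotated barcodes in WT 1, WT 2, Tbx1+/- 1 and Tbx1+/- 2 (median depths 3853, 4758, 4139 and 4700.5 UMIs). In chondrocyte progenitors (CP1 to CP6), cartilage cells with no known use for it that make up a large part of those same annotated barcodes, the shares were 16.0%, 3.59%, 16.4% and 0.955% (median depths 3741.5, 4534.5, 4158 and 4538). In muscle-rich barcodes they were 90.5%, 85.7%, 95.4% and 88.9%. No expression is read from these shares, since a cell type that should lack the gene had them too. Single barcodes outside the group held more, up to 31 Myh8 UMIs in a chondrocyte progenitor barcode of Tbx1+/- 1 and 22 in an unannotated barcode of WT 1. Of the barcodes with 10 to 49 member UMIs, 67 of 79 in WT 1 and 64 of 76 in Tbx1+/- 1 were muscle-rich. Among all barcodes, 686 held at least 3 member UMIs and 187 of these carried a deposited label, 122 in WT 1, 3 in WT 2, 62 in Tbx1+/- 1 and 0 in Tbx1+/- 2. For every Myh1 UMI there were 3.65, 1.46, 4.83 and 2.06 Myh8 UMIs inside muscle-rich barcodes and 2.86, 4.35, 4.14 and 2.50 in other annotated barcodes. The ratios were furthest apart in WT 2, where 52 Myh1 UMIs stood behind the value in annotated barcodes.

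Most muscle-rich barcodes held the perinatal isoform. Of the 288 barcodes, 222 held at least 3 UMIs of Myh8 (77.1%), 134 of Myh1 (46.5%), 68 of Myh2 (23.6%), 50 of Myh3 (17.4%), 15 of Myh7 (5.21%), 8 of Myh4 (2.78%) and 0 of Myh6, which allows a share of up to 1.04% of barcodes with that many (counting error only, over barcodes pooled from 4 libraries). The mean level of Myh8 was 4653 ± 965 CPM, that of Myh1 1774 ± 609, of Myh2 864 ± 481, of Myh7 468 ± 413, of Myh3 387 ± 105 and of Myh4 36.6 ± 30.5 (SD, n = 4 libraries). The makeup differed between the batches. Myh8 made up 66.1% and 70.9% of the member UMIs in the batch 1 libraries WT 1 and Tbx1+/- 1 and 44.3% and 47.5% in WT 2 and Tbx1+/- 2. Myh1 made up 18.1% and 14.7% in batch 1 and 30.5% and 23.1% in batch 2. The embryonic Myh3 stayed between 3.58% and 6.40% in all 4 libraries. The batch 2 values rest on 14 and 18 barcodes, and 8 muscle-rich barcodes in all had no member UMI.

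Most barcodes with 1 isoform also held another. Of the 134 muscle-rich barcodes with at least 3 Myh1 UMIs, 122 (91.0%) had at least 3 of Myh8, and so did 57 of 68 with Myh2 (83.8%), 48 of 50 with Myh3 (96.0%) and 8 of 8 with Myh4. Of the 15 barcodes with Myh7, 10 had Myh8, 7 had Myh1 and 7 had Myh2. Beside these, 77.1% of all 288 muscle-rich barcodes held at least 3 Myh8 UMIs. Of the 222 with Myh8, 55.0% had at least 3 UMIs of Myh1, 25.7% of Myh2 and 21.6% of Myh3. Whether 2 nuclei under 1 barcode took part in these counts was not tested.

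Over the 481 muscle-marker barcodes, the genes most like each member were taken by Pearson correlation of log(1 + UMIs per 10000). Myh8 was most like Myl1 (r = 0.807), Tnnt3 (0.799) and Mylpf (0.799), a fast light chain, the fast troponin T and the fast regulatory light chain. The 3 nearest to Myh1 were the same ones, Tnnt3 (0.674), Myl1 (0.639) and Mylpf (0.636). Myh2 was most like Csrp3 (0.527), Des (0.505) and Acta1 (0.489), and Myh3 was most like Des (0.552), Tnnc2 (0.509) and Acta1 (0.480), where Des encodes desmin and Acta1 the skeletal actin. Myh8 correlated with Myh1 at 0.613 and with Myh7 at 0.0664. Barcodes of 1 library share its depth and background, so these are descriptions, and in the 288 muscle-rich barcodes alone the value for Myh8 and Myh1 was 0.351. There the nearest genes were partly others, Ckm (0.634), Tnnc2 (0.603) and Mylpf (0.602) for Myh8 and Tnnt3 (0.492), Tpm1 (0.464) and Tnni2 (0.458) for Myh1, with none in both trios.

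Barcodes that differed in their leading member, the one with the most UMIs, also differed in the slow and fast genes of the sarcomere. Among the 261 muscle-rich barcodes with at least 3 member UMIs, Myh8 led in 187, Myh1 in 42, Myh2 in 13, Myh7 in 11, Myh3 in 7 and Myh4 in 1. The 11 barcodes led by Myh7 came from all 4 libraries, 6 from WT 1, 2 from WT 2, 2 from Tbx1+/- 1 and 1 from Tbx1+/- 2. In them the slow troponins stood at 1925 CPM for Tnnt1, 1404 for Tnnc1 and 494 for Tnni1, against 260, 66 and 55 in barcodes led by Myh8. The slow light chains Myl2 and Myl3 stood at 1873 and 962 CPM against 70 and 42. Tpm3, the slow tropomyosin, stood at 4265 CPM against 136, and Atp2a2, the slow calcium pump, at 1040 against 224.

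The fast genes ran the other way. Tnnt3, the fast troponin T, stood at 208 CPM in barcodes led by Myh7 (exact 95% Poisson interval 89.8 to 410, counting error only) and at 2960 CPM in those led by Myh8. Tnni2, the fast troponin I, stood at 182 (73.2 to 375) and 2462 CPM, and Tnnc2, the fast troponin C, at 988 (699 to 1356) and 5585 CPM. In each of the 4 libraries the 10 slow fiber genes summed to more in barcodes led by Myh7 than in those led by another member: 18734 against 3860 CPM in WT 1, 20396 against 3137 in WT 2, 11269 against 3626 in Tbx1+/- 1 and 29882 against 6663 in Tbx1+/- 2. The 11 fast fiber genes summed to less in each, 6192 against 23102, 3195 against 25881, 2669 against 17322 and 1048 against 26407 CPM. The 8 genes of immature muscle summed to 472 against 590 CPM in WT 1, 328 against 400 in WT 2 and 593 against 641 in Tbx1+/- 1, and to 0 against 1140 in Tbx1+/- 2, where 1 barcode was led by Myh7. With 1 to 6 barcodes per library behind the Myh7 values, these are descriptions without a test.

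**Figure D3:**
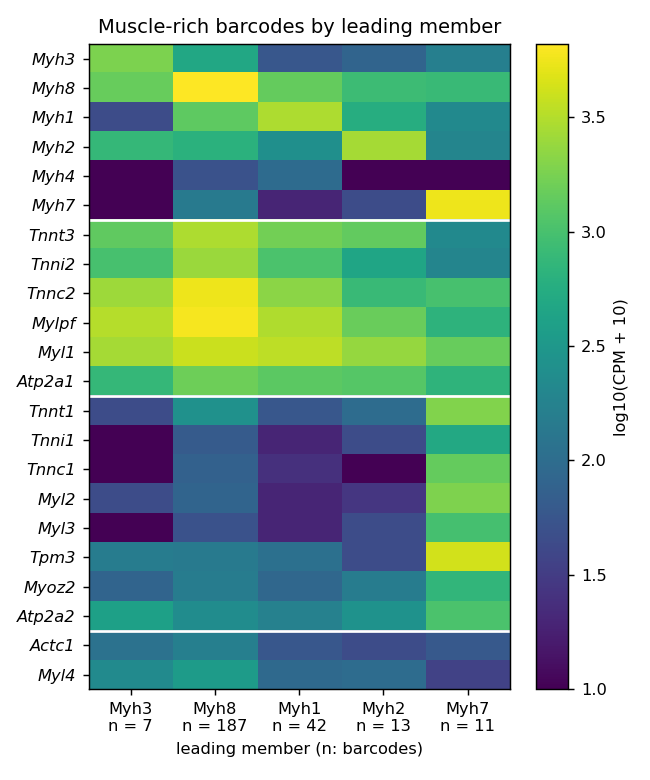
Heat map of log10(CPM + 10) in muscle-rich barcodes pooled over the 4 PTB libraries, with columns for the leading member (n, number of barcodes) and rows for the members, fast fiber genes, slow fiber genes and 2 immature muscle genes, set apart by white lines. The column led by Myh7 is bright for Tnnt1, Tnnc1, Myl2, Myl3 and Tpm3, and for Tnnt3 and Tnni2 it is darker than the column led by Myh8.

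The other leading members differed in degree. Barcodes led by Myh1 held 2970 CPM of Myh1 and 1423 CPM of Myh8, so the perinatal isoform was the second there. Mybpc1, a myosin binding protein counted among the slow genes, was also highest with Myh7 in the lead, at 6658 CPM, and stood at 5644 with Myh2, 3804 with Myh1 and 2366 with Myh8. Myl4, a light chain of fetal muscle and atrium, stood at 341 CPM in barcodes led by Myh8, at 81 in those led by Myh1 and at 26 in those led by Myh7. Mef2c, a muscle transcription factor also used by other cells, differed little, between 1690 and 2769 CPM.

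Across the deposited cell types, the 6 members other than Myh6 were at a like low level. Their summed mean ran from 27.7 ± 25.7 CPM in osteoclasts to 77.3 ± 86.5 in matured chondrocytes (SD, n = 4 libraries), and was 120 ± 104 in unannotated barcodes, which held 278 of the 288 muscle-rich ones. The highest single value among labelled types, 198 CPM in matured chondrocytes of Tbx1+/- 1, included 1 muscle-rich barcode and was 132 CPM without it. Within each type the libraries were again ordered by batch. CT1, a connective tissue type with 3 muscle-rich barcodes, stood at 54.0 ± 44.8 CPM, and at 52.0 ± 42.5 without them.

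Myh6 followed another pattern. It was highest in CP5, a chondrocyte progenitor type, with 9.84 CPM in WT 1, 9.99 in WT 2, 4.57 in Tbx1+/- 1 and 8.93 in Tbx1+/- 2. Osteoclasts came next, at 4.18, 4.26, 3.68 and 5.53 CPM, close to unannotated barcodes at 4.05 ± 1.06 (SD, n = 4). In osteoblasts it lay between 0.329 and 0.653 CPM, below both types in every library, and in the 587 matured chondrocytes 0 UMIs were found. A single UMI, of Myh4, stood at 2.43 CPM in matured chondrocytes of 1 library, so the 0 does not rank this type below osteoblasts. The mean of CP5, 8.33 ± 2.55 CPM, lay above the 2.72 ± 1.58 of CP3 by more than either SD. The counts were small, with 58 UMIs in CP5 and 46 in osteoclasts, and the clusters were defined with all genes, so the order is a description. Barcodes with 3 Myh6 UMIs numbered 5, all in WT 2, 2 of them labelled and none muscle-rich, and of the 288 muscle-rich barcodes only a few in batch 1 held any, with 3 UMIs in WT 1 and 3 in Tbx1+/- 1. The 7 genes are close paralogs, so where reads match several of them the split among members is uncertain. The noncoding gene Mhrt overlaps Myh7 on the opposite strand, and held 14, 15, 8 and 12 UMIs in WT 1, WT 2, Tbx1+/- 1 and Tbx1+/- 2, and Myhas, which overlaps Myh1 in the same way, held 19, 6, 18 and 3.

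**Figure D4:**
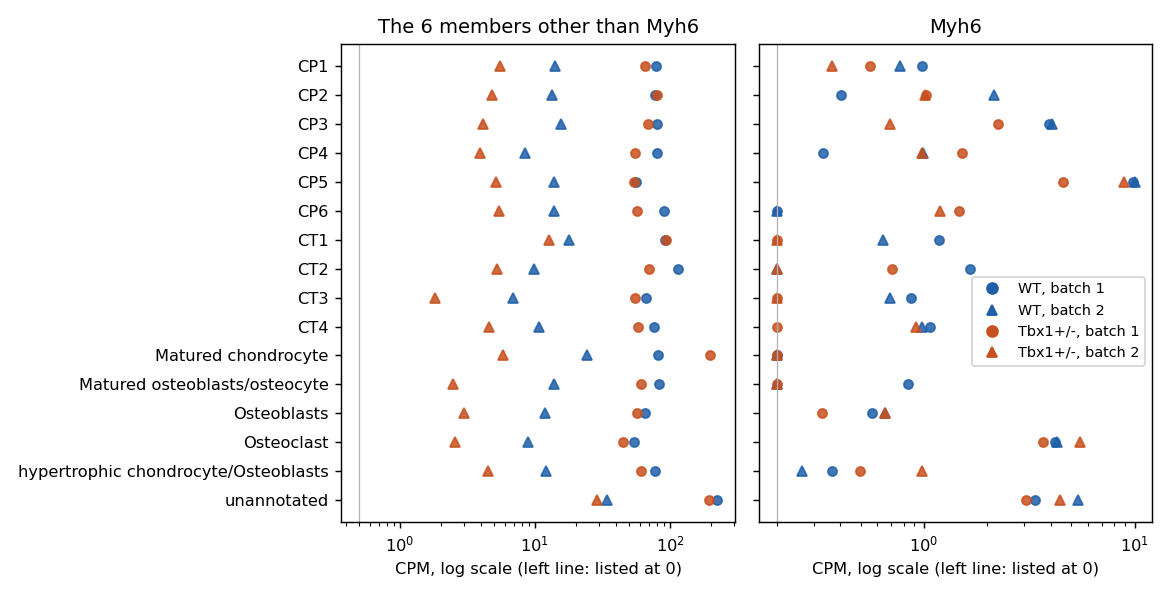
Level in CPM on a log scale in each deposited cell type and in unannotated barcodes, for the 6 members other than Myh6 and for Myh6, with 1 symbol per PTB library. The 6 members are ordered by batch in every type, whereas Myh6 is highest in CP5 (4.57 to 9.99 CPM), osteoclasts (3.68 to 5.53 CPM) and unannotated barcodes.

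The comparison of genotypes asks whether loss of 1 Tbx1 copy went with a change of the members in PTB. All 7 members had a fitted log2 difference below 0 in Tbx1+/- over all barcodes, and 0 were called. The median over all genes was -0.00580. The members were measured in the same libraries, so their directions are not 7 separate observations. Of 22473 genes tested by edgeR's quasi-likelihood test, 0 were called (0% background). An unadjusted p under 0.05 was reached by 155 genes in edgeR and by 94 in DESeq2, which called 0 as well. Myh7 had the largest difference, with a mean of 4.12 ± 2.91 CPM in WT and 1.17 ± 0.0881 in Tbx1+/- (SD, n = 2). Its log2 difference was -1.85 ± 0.59 (SE), with an unadjusted p of 0.0272 and an adjusted p of 1.00 by edgeR. Within batch 1 the Tbx1+/- level was 0.199 of WT and within batch 2 it was 0.536. The other members had differences of -1.04 ± 1.26 for Myh4, -0.60 ± 1.13 for Myh1, -0.30 ± 0.30 for Myh6, -0.28 ± 0.94 for Myh2, -0.20 ± 1.37 for Myh8 and -0.13 ± 1.16 for Myh3, each with an SE about as large as the difference or larger. For Myh8 the means were 52.4 ± 57.7 CPM in WT and 46.7 ± 55.2 in Tbx1+/-.

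With the batch as a block the standard errors of Myh1, Myh8 and Myh4 were smaller, and so was that of Myh7. Myh1 then differed by -0.54 ± 0.12 (SE, unadjusted p = 0.00551), Myh7 by -1.68 ± 0.38 (unadjusted p = 0.00585), Myh8 by -0.35 ± 0.13 (unadjusted p = 0.0376) and Myh4 by -1.25 ± 0.47 (unadjusted p = 0.0437) in edgeR. Adjusted over all genes, each of these p-values was 1.00 and 0 of 22473 genes were called. The number of genes at an unadjusted p under 0.05 given above belongs to the fit without the block. The share of all genes at that p with the block is not given, so no change is read from these unadjusted p-values. For the members not listed, the log2 ratios of CPM in batch 1 and batch 2 were -0.262 and -0.154 for Myh2. They were -0.00329 and -0.681 for Myh3, and -0.326 and -0.282 for Myh6. The difference between PTB and PF/F in the effect of genotype was not called for any of 23420 genes, and for Myh7 it was -2.03 ± 0.75 (adjusted p = 1.00 by edgeR).

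Over muscle-marker barcodes alone, 6 members were abundant enough to test and again 0 of 13758 genes were called (0% background, 179 at an unadjusted p under 0.05 by edgeR). DESeq2 called 1 gene there, which was Nox3, an oxidase of the inner ear, and edgeR without a filter on low counts called 20, Myh7 among them (log2 difference -2.12, adjusted p = 0.0219). With the filter, Myh7 differed by -2.13 ± 0.92 (unadjusted p = 0.0656, adjusted p = 1.00 by edgeR). Myl2, the slow regulatory light chain, was also among the 20 and differed by -3.18 ± 1.26 with the filter (adjusted p = 1.00 by edgeR). Genes not of muscle were among the 20 too. The erythroid Hba-a1 (2.54, adjusted p = 0.0137 by edgeR) and Hba-a2 (2.51, adjusted p = 0.00672) were higher in Tbx1+/-. Nox3 was lower (-4.00, adjusted p = 4.81e-07 by edgeR). In muscle-rich barcodes Myl2 stood at 152, 201, 12.4 and 83.5 CPM in WT 1, WT 2, Tbx1+/- 1 and Tbx1+/- 2 (127, 17, 7 and 7 UMIs), and Myh7 at 271, 971, 21.3 and 608 CPM (226, 82, 12 and 51 UMIs). The largest number of Myh7 UMIs in 1 barcode was 70, 47, 4 and 25 in the same order. Muscle-marker barcodes outside the muscle-rich group held the 5 erythroid markers at 483, 601, 655 and 5474 CPM, and the part of these in the comparison was not tested.

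Of the lists of muscle genes, 0 of 11 fast, 0 of 10 slow and 0 of 7 tested immature muscle genes were called between genotypes over all PTB barcodes. Their median log2 differences were -0.38, -0.17 and 0.02, beside -0.30 for the members and -0.01 for all genes. Of the markers of other cell types, 5 of 5 erythroid genes (median -0.54) and 4 of 4 fibroblast genes (median -0.32) also lay below 0. So did 3 of 3 osteoclast (-0.14), 3 of 4 chondrocyte (-0.06), 3 of 4 neuron (-0.07) and 2 of 4 osteoblast genes (-0.14). The smooth muscle (0.15), cardiac (0.13), Schwann (0.06), endothelial (-0.06) and immune (-0.03) medians lay near 0 or above it. Over muscle-marker barcodes the erythroid median was 1.40, with 0 of 5 below 0. The osteoclast (0.52), neuron (0.25), immune (0.17) and chondrocyte (0.01) medians lay above 0 there. Those of smooth muscle (-1.22), Schwann (-0.61), endothelial (-0.43), fibroblast (-0.31) and osteoblast (-0.19) genes lay below it, beside -0.62 for the members. With the filter on low counts none of these markers was called. Without it Hba-a1 and Hba-a2 were called higher over muscle-marker barcodes, as given above. The part of these markers in the members' differences was not tested. Among the genes of fast fibers Tnnt3 differed by -0.54 ± 1.17 and Mylpf by -0.46 ± 1.27, and among those of slow fibers Tnnt1 differed by -0.69 ± 0.74 and Tpm3 by 0.03 ± 0.13 (SE, adjusted p = 1.00 for each by edgeR). Of 12 regulators of fiber type, among them Sox6 and Mef2c, 0 were called, with a median of 0.07. Of the pharyngeal muscle regulators 5 were tested and 0 called. Tbx1, the gene with 1 copy lost, was among them and was not called either (-0.35 ± 0.20, SE, unadjusted p = 0.152 by edgeR). Between the tissues 10 of 11 fast, 7 of 10 slow and 5 of 7 tested immature muscle genes were higher in PTB, beside 29.3% of all genes, and 1 immature gene, Chrng of the fetal acetylcholine receptor, was lower (-0.80 ± 0.24, adjusted p = 0.0175 by edgeR). The differences on the log2 scale included Tnnc2 at 6.50 ± 1.14, Tnni2 at 6.28 ± 1.00 and Myl3 at 4.20 ± 0.23 (adjusted p = 0.00152, 0.000924 and 4.08e-06 by edgeR).

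The composition of the member UMIs was compared by an exact two-sided permutation test over libraries, which with 2 against 2 cannot go below 0.333. The developmental share, Myh3 and Myh8 together, was 65.8% in WT 1, 49.4% in WT 2, 73.1% in Tbx1+/- 1 and 46.3% in Tbx1+/- 2. Its means were 57.6 ± 11.7% in WT and 59.7 ± 19.0% in Tbx1+/- (SD, n = 2), a difference of 2.09 percentage points (exact permutation p = 1), with 7.28 points in batch 1 and -3.11 in batch 2. In muscle-rich barcodes alone the share was 70.4%, 47.9%, 77.3% and 52.0% in the same order, a difference of 5.48 points (exact permutation p = 0.667), with 6.83 points in batch 1 and 4.12 in batch 2. The Myh7 share was 4.03%, 7.74%, 0.963% and 5.90% in the same order, lower in Tbx1+/- within both batches. Its means were 5.89 ± 2.63% in WT and 3.43 ± 3.49% in Tbx1+/-, a difference of -2.45 points (exact permutation p = 0.667), with -3.07 in batch 1 and -1.84 in batch 2. Without the library Tbx1+/- 1, which leaves the genotypes unequal in batch, the difference was 0.0148 points. In muscle-rich barcodes alone it was -4.08 points and outside them -1.76. With Myh6 left out of the total, the developmental share was 66.9% in WT 1, 56.8% in WT 2, 74.2% in Tbx1+/- 1 and 54.6% in Tbx1+/- 2. The Myh7 share was then 4.09%, 8.90%, 0.978% and 6.96% in the same order.

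**Figure D5:**
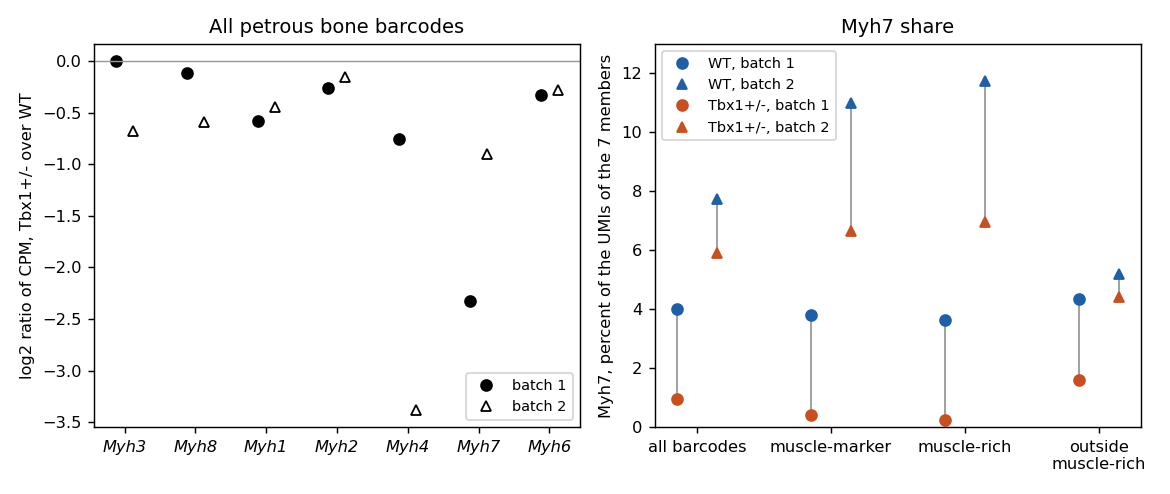
Left, log2 ratio of CPM in Tbx1+/- over WT for each member within batch 1 and batch 2, over all PTB barcodes. Right, the Myh7 share of the UMIs of the 7 members in each library, in percent, with a gray line joining the genotypes of a batch. Each ratio lies below 0, though Myh3 in batch 1 is at 0.998-fold. Myh7 has the lowest in batch 1 at 0.199-fold and Myh4 the lowest in batch 2 at 0.0960-fold (21 UMIs in WT 2 and 2 in Tbx1+/- 2).

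The numbers of barcodes with member UMIs and of muscle-marker barcodes overlapped between the genotypes. Barcodes with at least 3 member UMIs numbered 18.7 per 1000 in WT 1, 2.35 in WT 2, 13.5 in Tbx1+/- 1 and 1.76 in Tbx1+/- 2. The means were 10.5 ± 11.5 and 7.61 ± 8.27 per 1000 (SD, n = 2), 0.736-fold by the means of the log2 values (exact permutation p = 0.667), with 0.722-fold in batch 1 and 0.750-fold in batch 2. With at least 5 UMIs the folds were 0.941 and 1.15. Of the barcodes with at least 3 member UMIs, 144 of 408 in WT 1 and 16 of 28 in WT 2 were muscle-marker. So were 119 of 228 in Tbx1+/- 1 and 19 of 22 in Tbx1+/- 2. Myh6 was the leading member in 4 of them in WT 1, 8 in WT 2, 1 in Tbx1+/- 1 and 1 in Tbx1+/- 2. The part of Myh6 in the folds was not tested. The numbers of muscle-marker barcodes per 1000 had means of 7.34 ± 2.42 in WT and 6.87 ± 4.39 in Tbx1+/- (exact permutation p = 1). Muscle-marker barcodes numbered 9.05 per 1000 in WT 1 and 9.98 in Tbx1+/- 1, but 5.63 in WT 2 and 3.77 in Tbx1+/- 2. In neither measure was the difference larger than the spread between the batches. The permutation does not pair the libraries by batch, so it did not test the differences within a batch.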

How the data were processed

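Nuclei from frozen PTB and PF/F were profiled with 10x Genomics Chromium 3′ libraries. The authors counted reads with Cell Ranger 7.0.0 in intron mode against the mouse genome, and the deposited matrices hold raw UMI counts per gene and barcode, before the authors' later filters and ambient RNA correction, which were not repeated. Cell types were the deposited labels, and no doublets were removed. Reads that match several paralogs equally are left out by that counter, which can lower and shift members.

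Levels are CPM of a library's or barcode group's UMIs. Counts were summed per library and compared by edgeR 4.0.16 (quasi-likelihood test, TMM factors, filterByExpr, Benjamini-Hochberg, adjusted p under 0.05 and above 1.5-fold), with DESeq2 1.42.0 as an alternative, in R 4.3.3. The scripts were tested on simulated data. Shares and numbers of barcodes were compared by exact permutation over libraries, without pairing by batch. P-values measure the spread between pooled libraries. Exact Poisson intervals at 95% and floors of 3 counts cover counting error only.

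The members and lists were chosen with earlier results of these data known. The 7 members are always named, and from each list up to 4 genes with the most UMIs in muscle-marker barcodes, any called in a comparison (of the many called between tissues, only examples are given), and the 3 genes most like a member with at least 500 UMIs there. Deviations of libraries with the same number correlated at 0.516 over 22473 genes (all barcodes) and at 0.137 over 13758 genes (muscle-marker barcodes). The study describes a second set of animals, so the number was used as a batch in the descriptions and in the fits with a block. The main fits and the permutation tests held no batch term.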

Additional observations from a re-analysis of the deposited data

How the results depend on the processing

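Leaving out 1 library leaves the genotypes unequal in batch, so the ranges given here also hold the difference between batches. It moved the log2 difference in barcodes with at least 3 member UMIs (-0.443) between -1.94 and 1.05, in muscle-marker barcodes (-0.219) between -0.921 and 0.484, and the developmental share (2.09 points) between -11.3 and 15.5 and the Myh7 share (-2.45 points) between -4.92 and 0.0148. The first turned to 0.0539 with 5 UMIs as the threshold, and the second to 0.0874 with 20 marker UMIs and to 0.117 for muscle-rich barcodes. Over all barcodes, leaving out 1 library gave log2 differences of -2.36 to 1.34 for Myh1, -1.62 to 1.22 for Myh2, -2.31 to 1.53 for Myh3, -4.71 to 0.40 for Myh4 and -2.81 to 2.05 for Myh8, but -2.45 to -0.79 for Myh7. Over muscle-marker barcodes the ranges were -1.94 to 1.59 for Myh1, -1.12 to 2.32 for Myh2, -1.74 to 3.24 for Myh3, -8.11 to 2.93 for Myh4 and -2.64 to 3.08 for Myh8, and -3.12 to -0.50 for Myh7. There Myh2 turned to 0.41 with the replicate block, 0.71 in muscle-rich barcodes and 0.55 with both, and Myh8 to 0.15, 0.20 and 0.20. Without a filter on low counts 20 genes were called there (8 higher, 12 lower) and by DESeq2 1, against 0. With 1 library of each genotype in each batch, the replicate block cannot alter the 4 differences of shares and barcode numbers above. It called 0 genes between genotypes. Of the member values under alternatives, 206 kept direction and side of the threshold, 23 turned direction, and 3 crossed the threshold (Myh7 without a filter, Myh3 and Myh4 between tissues). The causes were not tested. Low counts limit Myh4, Myh6 and Myh7, and 14 and 18 muscle-rich barcodes limit batch 2.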

Other observations

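The other 7 myosin heavy chain genes averaged at most 95.7 CPM in muscle-rich barcodes. In muscle-rich barcodes Myh13 and Myh15, isoforms of eye and specialized head muscles, had 0 UMIs, and Myh7b had 16. The nonmuscle genes Myh9 and Myh10 averaged 95.7 ± 40.7 and 90.5 ± 21.3 CPM there (SD, n = 4 libraries), and in the other barcodes they lay between 140 and 158 CPM and between 93.1 and 103.3 CPM. Between the tissues, Myh9 was higher in PTB by 2.40 ± 0.09 on the log2 scale (SE, adjusted p = 9.17e-07 by edgeR), Myh11 of smooth muscle by 3.56 ± 0.50 (adjusted p = 0.000465), Myh14 by 1.73 ± 0.14 (adjusted p = 2.37e-05) and Myh15 by 1.15 ± 0.25 (adjusted p = 0.00426), whereas Myh7b differed by -0.996 ± 0.178 (adjusted p = 0.00166).

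Of the 8 genes of myogenic factors and fusion, 8, 3, 6 and 7 were higher in muscle-rich than in other barcodes in WT 1, WT 2, Tbx1+/- 1 and Tbx1+/- 2, and 5 of them had 0 UMIs in the muscle-rich barcodes of WT 2. Pax7, which marks satellite cells, averaged 44.5 ± 42.7 CPM, Myog, a factor of differentiating myoblasts, 34.1 ± 21.9 CPM, and Myf6, a factor of mature fibers, 28.7 ± 8.22 CPM (SD, n = 4 libraries), against at most 0.911, 0.581 and 0.387 CPM in the other barcodes. Tbx1 averaged 40.7 ± 12.4 CPM in muscle-rich barcodes, within its range of 27.6 to 46.3 CPM in the others.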
